A study of Mus musculus with 6 samples.

Results

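Expression of 10 genes that mark or specify the neural crest was followed across a comparison of hedgehog-stimulated and unstimulated neural cultures. They were the transcription factor genes Sox8, Sox9, Sox10, Foxd3, Tfap2a, Tfap2b, Snai2 and Ets1 and the receptor genes Ednrb and Erbb3. Every probe set (a group of short array probes read as 1 value) whose only gene symbol in the platform annotation was one of these 10 was taken, which gave 24 of the 45037 probe sets that were not controls, and the 10 genes were 10 of 18193 genes measured.

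The cultures were neuralized embryoid bodies, suspension aggregates made from mouse embryonic stem cells, from 1 stem cell line that carried a Gli1-FLAG transgene driven by the constitutive Rosa26 promoter. Gli1 is a transcription factor of the hedgehog pathway, so both groups carried a constitutive source of it. The 3 Ag1.3 cultures received 500 nM all-trans retinoic acid and 50 nM Ag1.3, an agonist of the hedgehog signal transducer Smoothened, for 3 days that began after 2 days in suspension. The 3 RA cultures received 500 nM all-trans retinoic acid alone for the same 3 days. Retinoic acid directs such aggregates towards neural fates. Cultures with the same replicate number were grown in parallel, which made 3 pairs, and each culture was read on 1 array. RNA came from whole aggregates, so fewer cells of a type and less RNA per cell cannot be told apart.

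The neural crest arises at the border between the neural plate and the surface ectoderm and along the dorsal neural tube, leaves the neuroepithelium as migrating cells, and forms peripheral neurons and glia, pigment cells and much of the facial skeleton. Bone morphogenetic protein and Wnt signals from the dorsal side induce it, border factors such as Pax3, Pax7, Msx1 and Zic1 prepare it, and factors such as Foxd3, Snai2, Sox9 and Sox10 specify it. Hedgehog signalling comes from the opposite, ventral side of the neural tube. Most of the 10 genes also have roles outside the crest, for example Sox9 in neural progenitors, Ets1 in endothelium, Foxd3 in pluripotent stem cells and Tfap2a in surface ectoderm.

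Values are deposited probe set intensities on a linear scale. The 18 intensities of 3 control probe sets without a matching spike ran from 4.02 to 20.71, and values up to 20.71 were read as not above background. Median intensities were 48.8 to 52.6 on Ag1.3 arrays and 48.7 to 51.9 on RA arrays. The neural progenitor genes Sox1, Sox2 and Nes were above background on every array, with Sox1 at 383 to 529 on Ag1.3 and 288 to 512 on RA arrays and Sox2 at 2462 to 2661 on Ag1.3 and 2699 to 2900 on RA arrays. Of the 24 crest probe sets, 14 were above 20.71 on all 6 arrays and 19 had a mean above it.

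With Ag1.3, 0 of the 10 crest genes passed the threshold of an adjusted p of 0.05 in limma's paired test over all genes, where 1.39% of genes passed. Their log2 fold changes were split evenly, 5 above and 5 below 0, with a median of -0.04 against -0.01 for the whole set of genes. An unadjusted p under 0.05 was reached by 3 of 10, where 14.9% of all genes reached it. Sox9 was the 1 on the higher side, where 7.24% of all genes lay, and Snai2 and Erbb3 were the 2 on the lower side, where 7.68% lay. Direction was shared by all 3 pairs for 4 of 10, beside 36.7% of all genes. It was higher for 1, Sox9, beside 17.2%, and lower for 3, Tfap2a, Snai2 and Erbb3, beside 19.5%. In the fit over all probe sets 0 of 24 passed, with 0.515% of all probe sets passing, and 6 of 24 had an unadjusted p under 0.05 beside 11.6% of all. The 95% intervals of all 10 genes lay inside a 2-fold change in either direction on the log2(intensity + 16) scale, the widest being that of Sox9, which reached a fold of 1.88. The 10 include Sox8, which was at background on every array. That scale understates changes of dim genes, and with a pseudocount of 1 the interval of Sox9 reached 2.48-fold higher and that of Snai2 reached a fold of 0.446. Without the pairs as a block 8 of 10 intervals lay inside a 2-fold change, and without pair 1 or without pair 3, 9 of 10 did.

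**Figure D1:**
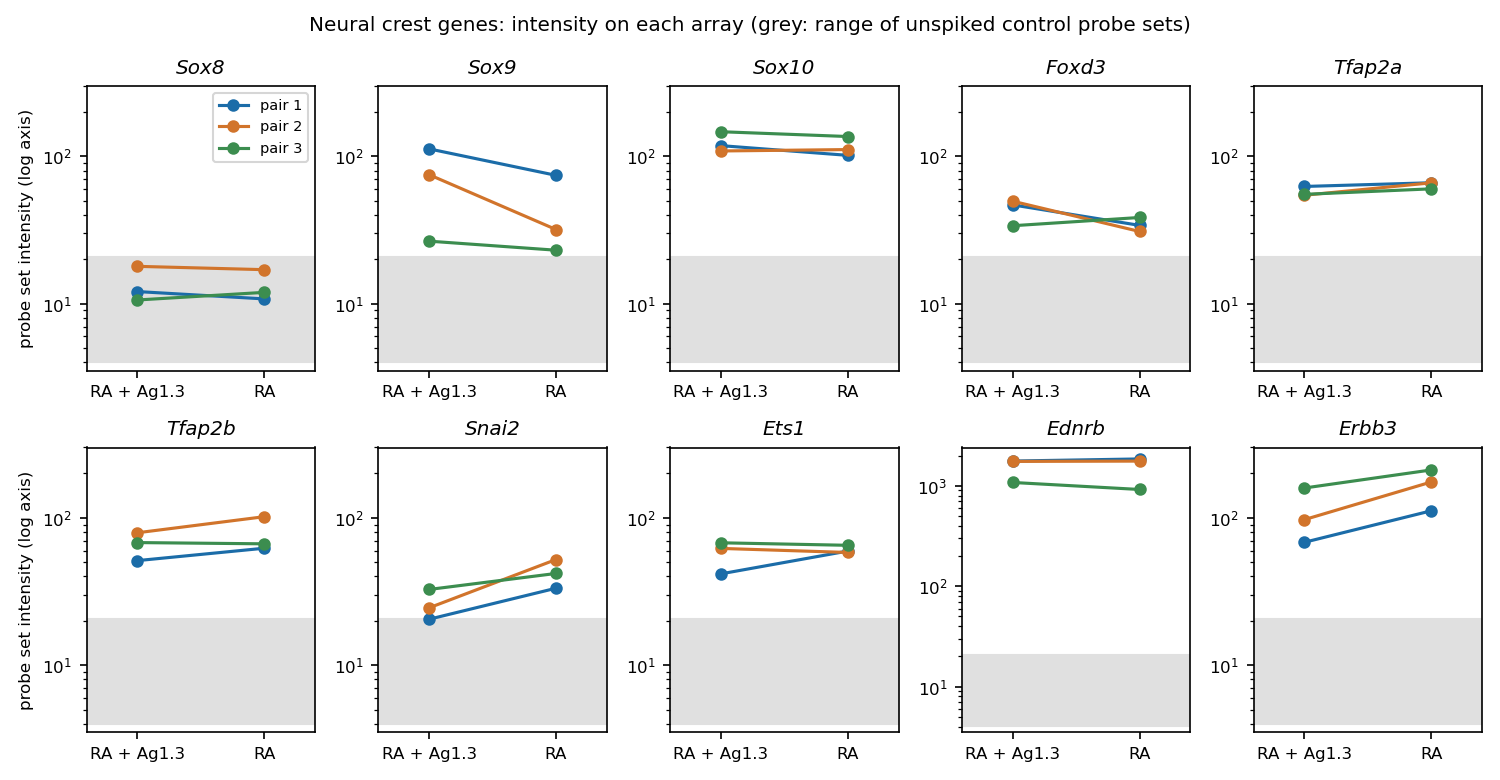
Intensity of the probe set that represents each of the 10 neural crest genes (log axis) on every array, with RA + Ag1.3 at the left and RA at the right of each panel. Lines join the 2 cultures of a pair, grey marks the intensities that controls without a spike spanned, and Ednrb has a taller axis than the other panels. Snai2 and Erbb3 were lower with Ag1.3 and Sox9 was higher in all 3 pairs, while Sox8 stayed within the grey range.

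Sox8, Sox9 and Sox10 form the SoxE group of transcription factors, which act in crest specification, glia and, for Sox9, cartilage. Sox9 read 112, 75.0 and 26.6 in Ag1.3 cultures of pairs 1 to 3, against 74.3, 31.9 and 23.1 in RA cultures. It was higher with Ag1.3 in all 3 pairs, but the groups overlapped, because both cultures of pair 3 were low. The means were 71.3 ± 43.0 in Ag1.3 and 43.1 ± 27.4 in RA cultures (SD, n = 3 each), with a log2 change of 0.52, SE 0.16 and adjusted p = 0.220, so Sox9 did not pass. A second Sox9 probe set read 58.7, 40.5 and 17.5 in Ag1.3 cultures, against 38.7, 25.6 and 14.4 in RA cultures, again higher in all 3 pairs with a log2 change of 0.34. The third read no more than 2.63 in Ag1.3 and 7.75 in RA cultures, which is background.

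Sox10, the SoxE gene most restricted to crest and its glial and pigment derivatives, was read very differently by its 3 probe sets. The one that represents the gene gave 118, 109 and 147 in Ag1.3 cultures, against 102, 111 and 136 in RA cultures. The groups overlapped, and the log2 change of 0.09 (SE 0.08) had an adjusted p of 0.699 and a 95% interval from -0.12 to 0.29. The other 2 probe sets read 0.91 to 10.1 in Ag1.3 and 1 to 4.2 in RA cultures, all background. Whether Sox10 was expressed is therefore read differently by different probe sets of the same array. Sox8 read 12.1, 17.9 and 10.6 in Ag1.3 cultures, against 10.8, 17.0 and 11.9 in RA cultures, so no array was above background.

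Foxd3, a repressor that specifies crest and also maintains pluripotent stem cells, read 46.8, 49.6 and 33.8 in Ag1.3 cultures, against 34.0, 30.9 and 38.5 in RA cultures. It was higher with Ag1.3 in pairs 1 and 2 and lower in pair 3. The log2 change of 0.23 (SE 0.13, adjusted p = 0.505) had a 95% interval from -0.10 to 0.56.

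Tfap2a and Tfap2b encode AP-2 transcription factors, which act at the neural plate border, in crest and in surface ectoderm. The Tfap2a probe set that represents the gene read 62.5, 54.5 and 55.2 in Ag1.3 cultures, against 66.2, 66.1 and 60.2 in RA cultures. It was lower with Ag1.3 in all 3 pairs by little, with a log2 change of -0.13 and adjusted p = 0.525. A dimmer probe set read 25.3, 23.8 and 23.5 in Ag1.3 cultures, against 47.1, 48.2 and 28.2 in RA cultures. Its groups did not overlap, as was so for 11.2% of all probe sets. In the fit over all probe sets its log2 fold change was -0.49 with SE 0.13 and adjusted p = 0.241. The third Tfap2a probe set gave 0.06, so the 3 probe sets of this gene did not share a direction. Tfap2b read 51.3, 79.2 and 67.9 in Ag1.3 cultures, against 62.2, 102 and 66.6 in RA cultures, with a log2 change of -0.17 and adjusted p = 0.488. The dimmer Tfap2b probe set gave -0.02.

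Snai2, a repressor of cadherin genes that acts as crest cells leave the neuroepithelium, was lower with Ag1.3 by both of its probe sets. The one that represents the gene read 20.5, 24.5 and 32.7 in Ag1.3 cultures, against 33.3, 52.1 and 41.9 in RA cultures. The groups did not overlap, which made Snai2 the 1 of 10 crest genes of this kind, where 11.8% of all genes did not overlap, 5.35% with all Ag1.3 arrays below and 6.45% with all of them above. The means were 25.9 ± 6.19 in Ag1.3 and 42.5 ± 9.43 in RA cultures (SD, n = 3 each), a log2 change of -0.48 with SE 0.11 and adjusted p = 0.141. This probe set has the suffix x, by which Affymetrix marks probes that can also bind unrelated transcripts. The second probe set read 13.5, 21.6 and 30.4 in Ag1.3 cultures, against 25.2, 31.8 and 33.1 in RA cultures. It was lower in all 3 pairs and its groups overlapped, with a log2 change of -0.30. Snai2 passed in 1 of 11 alternatives, the one scaled to the hybridization spikes. Both probe sets were at background in the Ag1.3 culture of pair 1 and little above it on the other arrays.

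Ets1, a transcription factor of cranial crest and of endothelium, had 4 probe sets, none of which moved with the treatment by more than 0.14 on the log2 scale. The one that represents the gene read 41.7, 62.0 and 67.7 in Ag1.3 cultures, against 59.5, 58.2 and 65.1 in RA cultures, and its log2 fold change was -0.09 with adjusted p = 0.786. Another read 37.9, 45.5 and 95.7 in Ag1.3 cultures, against 35.4, 54.9 and 106 in RA cultures. Both cultures of pair 3 were high by this probe set. A further one gave the same split, with 26.5, 28.9 and 48.3 in Ag1.3 cultures and 27.5, 31.3 and 63.6 in RA cultures. By the probe set that represents the gene pair 3 was also highest within both treatments, but by less. By the last one pair 3 lay between the other pairs within both treatments. Summed over 8 endothelial and blood genes, intensities were 365 to 412 on Ag1.3 and 318 to 427 on RA arrays.

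**Figure D2:**
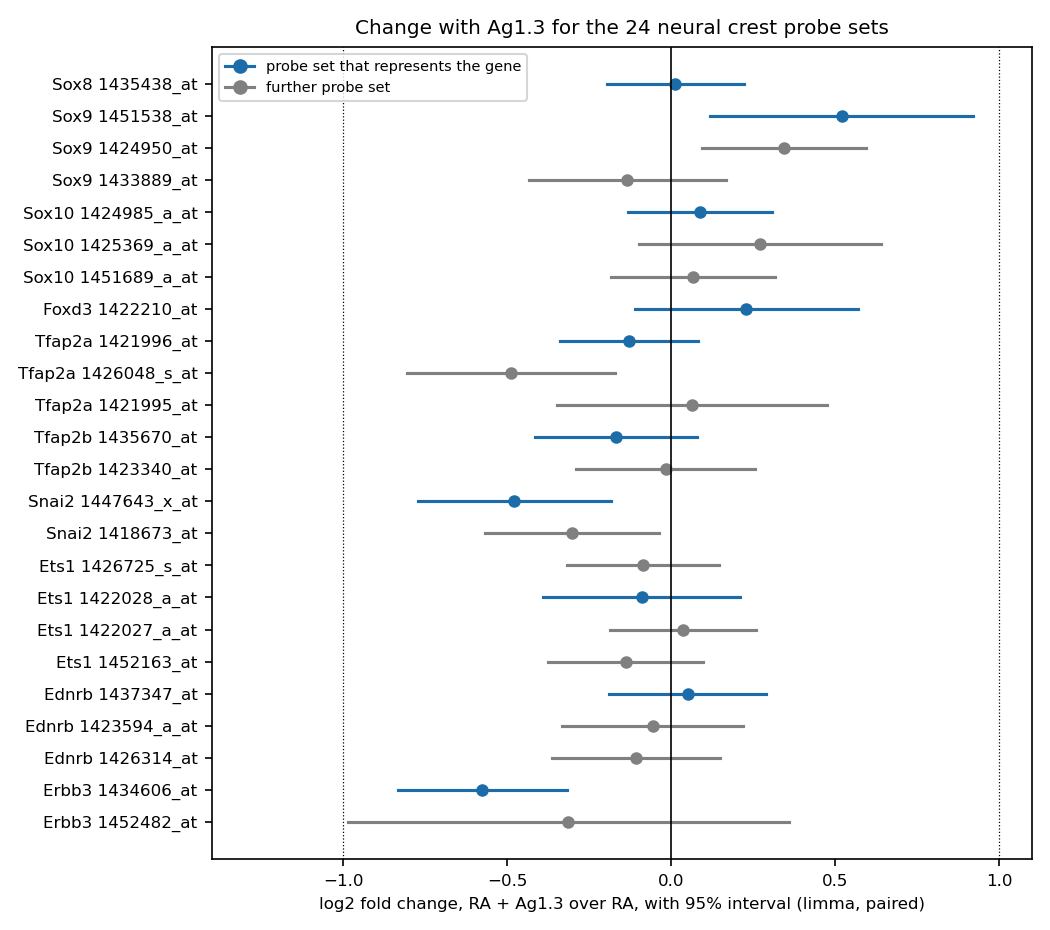
Log2 fold change (RA + Ag1.3 over RA) with its 95% interval for each of the 24 neural crest probe sets, from limma's paired fit over all 45037 probe sets. Blue marks the probe set that represents the gene, grey the further ones, and dotted lines mark a 2-fold change in either direction. The intervals of both Snai2 probe sets, the brighter Erbb3 probe set and 1 of 3 Tfap2a probe sets lie below 0, and those of 2 of 3 Sox9 probe sets lie above 0, before adjustment for the number of probe sets.

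Ednrb encodes the endothelin B receptor, which crest cells need to form enteric neurons and pigment cells and which neural progenitors also express. Its 3 probe sets were well above background. The one that represents the gene read 1767, 1752 and 1081 in Ag1.3 cultures, against 1854, 1765 and 921 in RA cultures. Both cultures of pair 3 were low and the treatments overlapped, with a log2 change of 0.05, SE 0.09, adjusted p = 0.856 and a 95% interval from -0.18 to 0.28. The next read 412, 323 and 120 in Ag1.3 cultures, against 490, 281 and 131 in RA cultures, and the third read 238, 217 and 128 in Ag1.3 cultures, against 302, 221 and 125 in RA cultures. All 3 probe sets thus set pair 3 below the other pairs, and by all 3 the treatments overlapped.

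Of the genes that act with Ednrb, 5 of the 6 listed were measured and 0 passed in limma's paired test. Of the 5, 1 had an unadjusted p under 0.05, beside 14.9% of all genes. This was Edn3, the ligand through which Ednrb acts in crest, which read 47.5, 43.8 and 68.3 in Ag1.3 cultures, against 29.7, 25.4 and 53.4 in RA cultures. It was higher in all 3 pairs and the groups overlapped, with a log2 change of 0.43, SE 0.09 and adjusted p = 0.0987.

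Erbb3 encodes a neuregulin receptor of migrating crest and Schwann cell precursors that signals together with Erbb2. It came nearest to the threshold of the 10 genes. It read 68.2, 97.2 and 159 in Ag1.3 cultures, against 112, 175 and 211 in RA cultures. It was lower with Ag1.3 in all 3 pairs, and the groups overlapped since the Ag1.3 culture of pair 3 exceeded the RA culture of pair 1. The means were 108 ± 46.5 in Ag1.3 and 166 ± 50.4 in RA cultures (SD, n = 3 each), with a log2 change of -0.58, SE 0.10, a 95% interval from -0.82 to -0.33 and adjusted p = 0.0706. It passed in 4 of 12 alternatives, which were a pseudocount of 64, a variance trend with intensity, bright probe sets only and scaling to the spikes, with adjusted p from 0.00169 to 0.0176, and over all 12 adjusted p ran from 0.00169 to 0.781. The other Erbb3 probe set was near background and gave no shared direction, with 22.3, 16 and 5.09 in Ag1.3 cultures and 15.1, 18.4 and 30.3 in RA cultures.

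The 3 genes whose pattern over the 6 arrays was most like that of Erbb3, out of 9096 genes at or above the median gene, were Zscan10, Mta3 and Tdgf1, with Pearson correlations of 0.999 each. They were picked for this likeness. Zscan10 is a zinc finger factor of embryonic stem cells, Mta3 a subunit of a chromatin remodelling complex, and Tdgf1 a Nodal co-receptor of the early embryo and of stem cells. Tdgf1 read 102, 182 and 403 in Ag1.3 cultures, against 236, 467 and 592 in RA cultures. Its log2 fold change was -0.97 with adjusted p = 0.0594, and those of Zscan10 and Mta3 were -0.30 and -0.46. Of the 8 pluripotent cell genes listed, all 8 had log2 fold changes below 0, with a median of -0.56. In limma's test 6 had an unadjusted p under 0.05 on the lower side, where 7.68% of all genes lay. Past the threshold 1 of 8 fell, Pou5f1, where 0.313% of all genes fell. The summed intensity of the 8 genes was 3293 to 6337 on Ag1.3 and 5061 to 8200 on RA arrays, and none was at background. Pou5f1 did not pass without any 1 of the pairs (adjusted p = 0.0810 to 0.240). The part of pluripotent cells in the Erbb3 values was not tested.

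**Figure D3:**
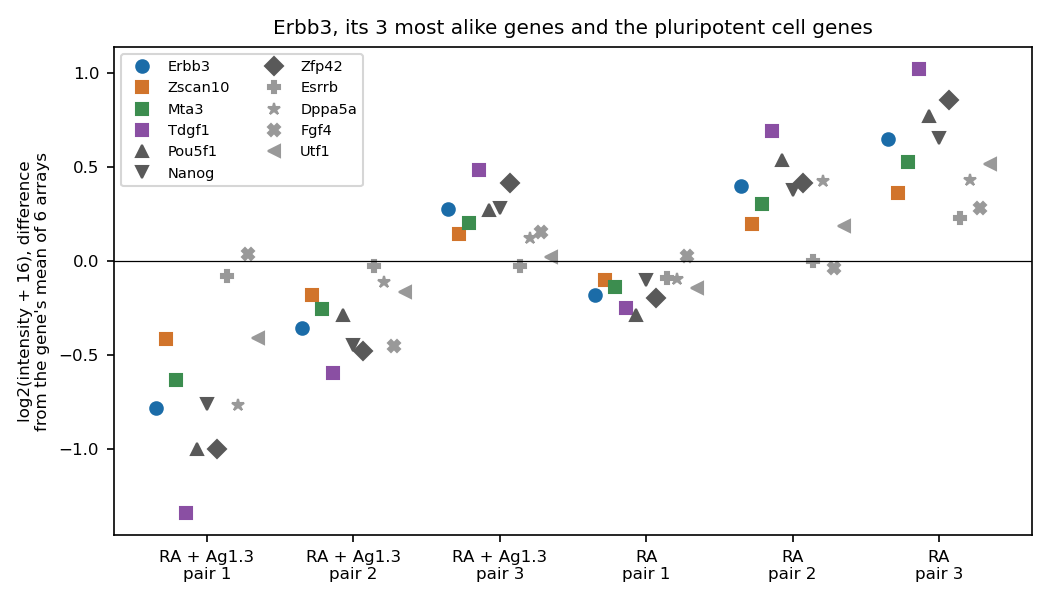
Log2(intensity + 16) on each array as the difference from the gene's own mean of the 6 arrays, for Erbb3, for the 3 genes most like it and for all 8 pluripotent cell genes (Tdgf1 is in both sets), with RA + Ag1.3 arrays left of RA arrays. Of the 8, 6 lie on the same side of their mean as Erbb3 on all 6 arrays, and the other 2, Esrrb and Fgf4, do so on 4 and 3 of the arrays. How many of all genes do so was not counted.

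Among the partners of Erbb3, 0 of 7 neuregulin and ErbB receptor genes passed in limma's paired test. An unadjusted p under 0.05 was found for 1 of 7, beside 14.9% of all genes. Nrg1, the neuregulin that activates Erbb3 on crest and glial cells, read 61.8, 59.2 and 70.0 in Ag1.3 cultures, against 35.3, 54.1 and 49.0 in RA cultures. All Ag1.3 values were above all RA values, as was so for 6.45% of all genes. The log2 change of 0.37 (SE 0.11) had an adjusted p of 0.224. Erbb2, the co-receptor, read 95.2, 91.4 and 106 in Ag1.3 cultures, against 86.2, 101 and 83.4 in RA cultures. These overlapped.

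For several members the arrays differed more between pairs than between treatments. Over the 6 arrays, the sum of squares of log2(intensity + 16) can be split into a part between the 3 pairs, a part between treatments and a rest. For the 3 Ednrb probe sets 95.3% to 98.3% lay between pairs and 0.156% to 1.57% between treatments. For the 2 Sox9 probe sets above background on at least 4 arrays, 77.6% and 83.0% lay between pairs and 16.01% and 14.5% between treatments. Snai2 had the reverse split by the probe set that represents it, with 24.7% between pairs and 63.5% between treatments. By its second probe set 53.9% lay between pairs and 35.5% between treatments. The treatment share was also the larger for Foxd3 (6.86% and 40.5%) and for the Tfap2a probe set that represents the gene (33.6% and 52.3%). The same was so for a dimmer Tfap2a probe set (19.3% and 65.7%) and for a Sox10 and an Erbb3 probe set near background. Over all probe sets the medians were 46.9% between pairs and 13.2% between treatments, and over the 24 crest probe sets 59.8% and 11.3%. These shares are a description, and the pair part has more degrees of freedom than the treatment part.

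Pair 3, which was low for Sox9 and Ednrb, was lowest of the 3 pairs within both treatments for 6 of 8 neural progenitor genes, Sox1, Sox3, Nes, Pax6, Msi1 and Vim, while Fabp7 was highest there and Sox2 was lowest there in RA cultures only. Of 7 gliogenic progenitor genes 2 were lowest in pair 3 within both treatments, the Notch target Hes5 and the growth factor receptor Fgfr3. Nfib and Aldh1l1 were highest there within both, and the other 3 were neither. All 8 pluripotent cell genes were highest in pair 3 within both treatments. How many of all genes were lowest or highest in pair 3 in this way was not counted, so these counts have no share to stand beside. Differences between pairs were common, with a median of 49.1% of the sum of squares over all genes. Whether the makeup of the pair 3 cultures bears on Sox9 and Ednrb was not tested.

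**Figure D4:**
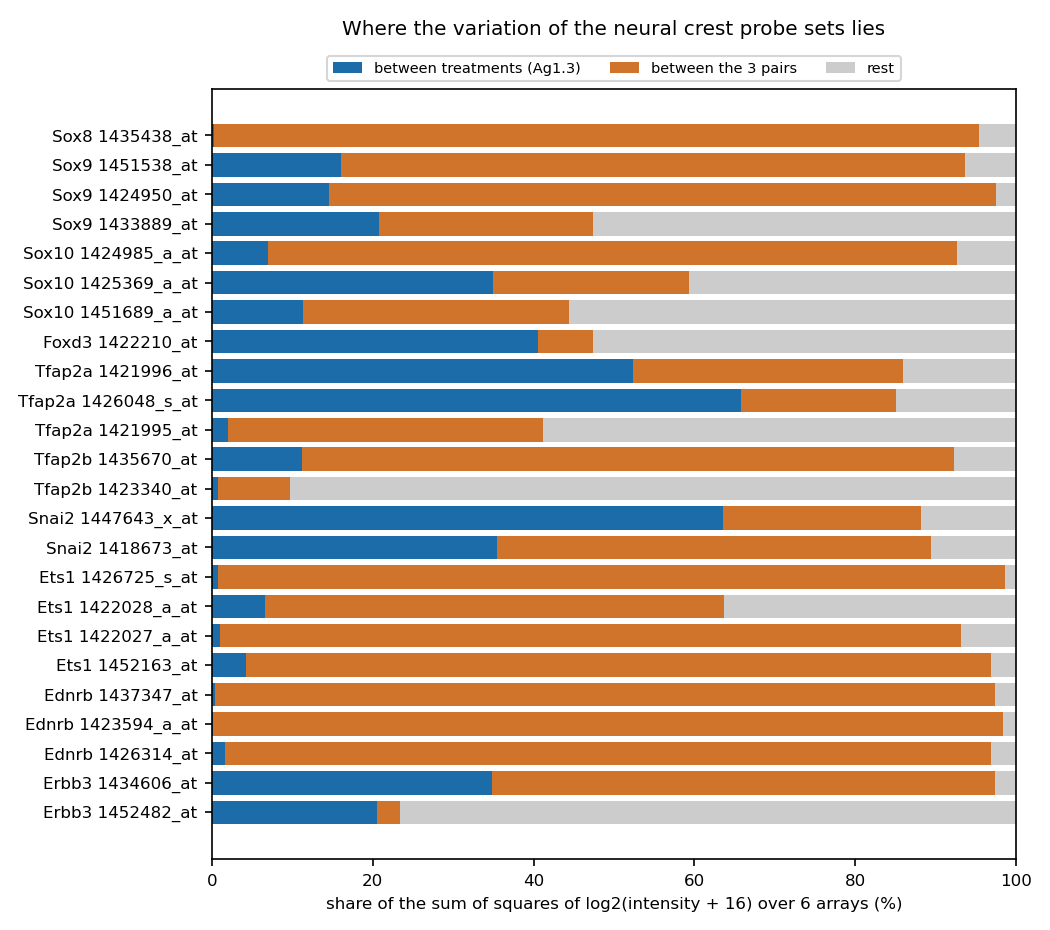
Share of the sum of squares of log2(intensity + 16) over the 6 arrays that lies between treatments, between the 3 pairs and in the rest, for each of the 24 neural crest probe sets (percent). The pair share is above 95% for all 3 Ednrb probe sets, for 1 of 4 Ets1 probe sets and for Sox8, and the treatment share is above 60% for 1 Snai2 and 1 Tfap2a probe set.

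The factors upstream of the crest genes were read from a list of neural plate border and dorsal neural tube genes. Of its 9 measured genes, 4 fell with Ag1.3 (0.313% of all genes fell), 0 rose, and 3 were at background on every array. The median log2 change of the list was -0.42. Pax3 read 14.7, 12.7 and 6.65 in Ag1.3 cultures, against 486, 304 and 109 in RA cultures, and Zic1 read 31.7, 32.9 and 56.1 in Ag1.3 cultures, against 647, 385 and 229 in RA cultures. The others that fell were Pax7 and Zic5. The count of 4 became 1 without pair 1, 0 without pair 2 and 3 without pair 3, and with a pseudocount of 1 it was 0, as it was over all genes. Pax3 and Pax7 were not above background on any Ag1.3 array, so their change has only a bound. For that bound Ag1.3 arrays were set to the highest control without a spike, with no pseudocount. On the mean of log2 values of each group, Pax3 was then at least 12.2-fold and Pax7 at least 10.03-fold lower in Ag1.3 cultures. These bounds hold for the measured group means and carry no interval. In pair 3 alone, where the RA culture read lowest (109 for Pax3 and 68.4 for Pax7), the bound is smaller. The median of the list is the value of Msx1, so it does not depend on how far Pax3 and Pax7 fell. The adjusted p of Pax3 was 0.0130. Zic1, which was above background on every array, fell by 2.87 on the log2 scale with adjusted p = 0.0364, and the groups of both genes did not overlap. Msx1 and Msx2, homeobox factors of the dorsal midline and border, had log2 fold changes of -0.42 and -0.38 and did not pass. Whether this list moved more than the crest genes was not tested. The dorsal signals showed 0 of 9 past limma's threshold and 1 of 9 with an unadjusted p under 0.05, beside 14.9% of all genes. This was Wnt1, a ligand of the dorsal midline that expands crest. It read 10.97, 19.5 and 17.8 in Ag1.3 cultures, none above background, against 36.3, 30.5 and 26.6 in RA cultures. By the same bound on group means, again without an interval, it was at least 1.49-fold lower in Ag1.3 cultures. It did not pass (adjusted p = 0.155).

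Of 23 further genes of crest specification and migration, 2 rose and 1 fell with Ag1.3, where 1.07% of all genes rose and 0.313% fell. The median of the list was 0.12. Cdh6, a cadherin of the dorsal neural tube and early crest, read 182, 153 and 228 in Ag1.3 cultures, against 64.9, 59.7 and 68.0 in RA cultures. It rose with a log2 change of 1.33, SE 0.10 and adjusted p = 0.0104, and the groups did not overlap. Cxcr4, a chemokine receptor of migrating cells, rose with a log2 change of 0.90 and adjusted p = 0.0159. Id3, a helix-loop-helix inhibitor induced by bone morphogenetic protein signals, read 632, 624 and 620 in Ag1.3 cultures, against 1088, 1041 and 1000 in RA cultures, and fell by 0.72 on the log2 scale with adjusted p = 0.0208. Snai1 and Twist1, which act beside Snai2 in cells that leave an epithelium, had log2 fold changes of -0.10 and -0.23 and did not pass, with overlapping groups. Without pair 1 0 genes of this list rose and 0 fell, and without pair 2 or pair 3 1 rose and 0 fell.

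Genes of the cells that crest forms were read from 5 lists, beside the 1.07% of all genes that rose. Of 7 Schwann cell and peripheral glia genes, 1 rose, Pou3f1, which promotes myelination and is also expressed in the central nervous system, at 234, 210 and 150 in Ag1.3 cultures, against 62.1, 67.3 and 72.8 in RA cultures. Of 6 autonomic neuron genes, 1 rose, Ret, a receptor that enteric crest and motor neurons share, at 357, 280 and 398 in Ag1.3 cultures, against 92.7, 93.6 and 44.3 in RA cultures. Pou3f1 did not pass without pair 1 or pair 2, and Ret did not pass without any 1 of the pairs (adjusted p = 0.0505 to 0.125). In limma's test 0 of 8 melanocyte genes, 0 of 5 sensory neuron and placode genes and 0 of 7 cranial crest mesenchyme genes passed. The numbers at an unadjusted p under 0.05 were 2, 2 and 0, where 14.9% of all genes were. The smallest p among melanocyte genes was that of Kit, a receptor of pigment cell precursors, with a log2 fold change of -0.34. Among sensory genes it was that of Neurog1, a factor that commits sensory neurons, at 0.25, and among mesenchyme genes that of Alx4, a homeobox factor of facial mesenchyme, at 0.16. Dct, a pigment enzyme, read 21.1 to 29.2 on Ag1.3 arrays and 28.9 to 34.1 on RA arrays, and these overlapped.

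**Figure D5:**
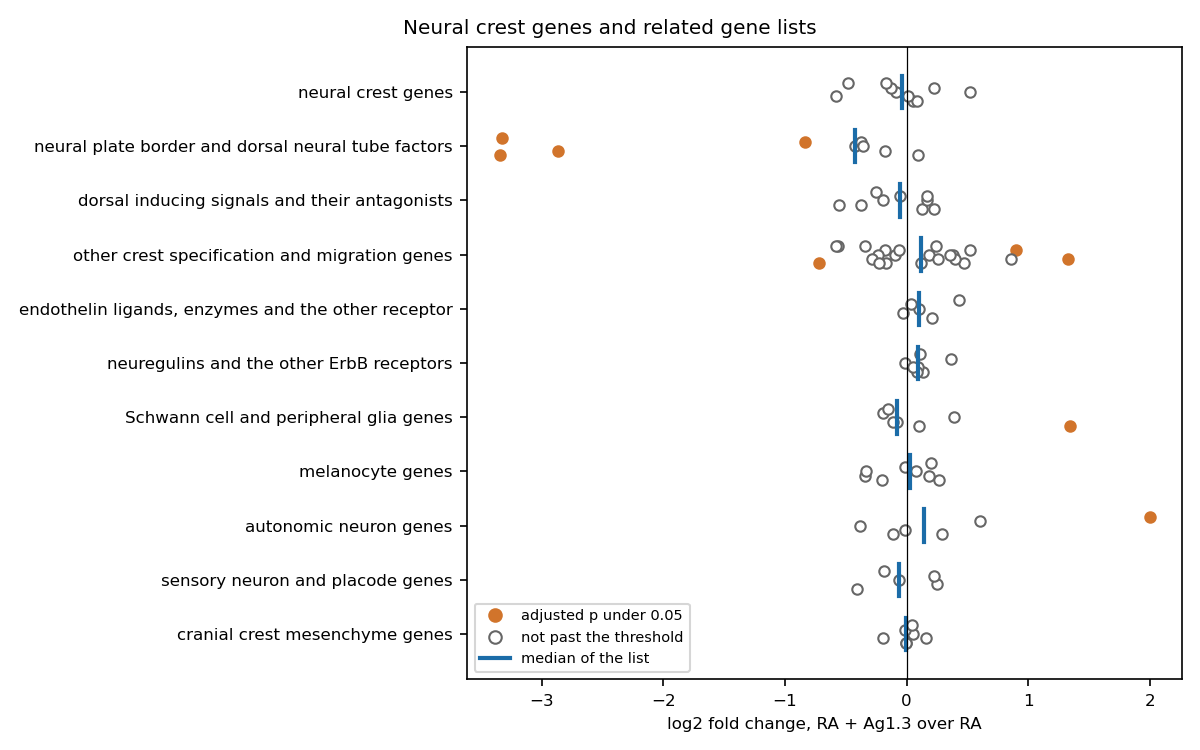
Log2 fold change (RA + Ag1.3 over RA) of every measured gene in the neural crest list and in 10 related lists, with filled points for an adjusted p under 0.05 and blue bars for the median of each list. The neural crest row has no filled point, and 4 border and dorsal factors are filled below 0. Pax3 and Pax7, at background with Ag1.3, stand at fitted values that depend on the pseudocount.

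Other cell types that express some of the members were read from marker lists. Over all genes 1.07% rose and 0.313% fell, and 14.9% had an unadjusted p under 0.05, 7.68% on the lower side. Of 8 surface ectoderm genes 0 passed in limma's paired test and 5 had such an unadjusted p, 4 of them lower, with sums of 567 to 1551 on Ag1.3 and 846 to 1710 on RA arrays. Of 6 interneuron genes of dorsal and V1 type, where Tfap2 genes and Foxd3 are also expressed, 2 fell, Lhx1 and Lhx5, with sums of 240 to 368 on Ag1.3 and 353 to 593 on RA arrays. Of 5 oligodendrocyte precursor genes 3 rose, Olig2, Olig1 and Nkx2-2, which ventral neural progenitors share. Pdgfra and Cspg4, the others of this list, did not pass, with log2 fold changes of -0.17 and 0.015. Sums over the 5 genes were 1646 to 2227 on Ag1.3 and 135 to 222 on RA arrays. Endoderm sums were 309 to 486 on Ag1.3 and 339 to 583 on RA arrays, with Sox17 as the 1 of 8 that fell, and 0 of 7 mesoderm genes passed, with 2 at an unadjusted p under 0.05. Lhx1 and Lhx5 did not pass without pair 1 or pair 2, and Sox17 did not without any 1 pair. The part of these cell types in the values of the crest genes was not tested.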

How the data were processed

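RNA of 6 cultures was read on Affymetrix arrays. The authors deposited 1 linear intensity per probe set and array. How probes were summarised and scaled is not given in the sources used here. Tests used log2(intensity + 16). After 64 controls were left out, 34945 of 45037 probe sets had 1 gene symbol in the platform annotation, 932 had several and 9160 are unnamed here. For each of 18193 genes the probe set of highest mean log2 value stood for the gene. Groups followed the sample titles, and 3 arrays a group limit precision. RA_Ag1.3 was tested against RA with limma 3.58.1 in R 4.3.3 (two-sided, replicate number as a block, Benjamini-Hochberg over all genes or all 45037 probe sets, threshold 0.05), with moderated standard errors (SE). The design text calls the cultures paired, and deviations from group means correlated across genes at 0.54, 0.19 and 0.56 for equal numbers and at -0.51 to 0.07 for unequal ones. P-values rest on how the difference between treatments varied over the 3 pairs of cultures of 1 line, with variances moderated over all genes. On simulated data of 18193 genes, 200 of them changed, the test recovered 91.5% of changes of 1 on the log2 scale. No smaller change was simulated, and the simulated spread did not depend on intensity. The share therefore does not say how often changes of the size seen in the crest genes would be found. Named genes were all 10 members, up to 2 called genes of each other list or its gene with the smallest p, and the 3 genes most like the member with the smallest p. Others were named after their values were seen. Members and lists were chosen with earlier results of these data known. Alternatives were another pseudocount, filter, scaling, variance model or probe set choice, no block, and leaving out each pair. Listed genes that were not measured are not analysed here.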

Additional observations from a re-analysis of the deposited data

How the results depend on the processing

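The 0 of 10 crest genes past the threshold became 1 with a pseudocount of 64, with probe sets at or above the median only and with a variance trend, Erbb3 each time, and 2 with scaling to the hybridization spikes, Erbb3 and Snai2. The 0 of 24 probe sets became 1, 1, 1 and 3 under these settings. Without any 1 of the pairs both counts were 0. Without the replicate block they were 0 as well, and 86 genes passed in all. Over all genes 252 passed, 195 of them higher, and the count was 0 with a pseudocount of 1, 831 with 64, 950 with the filter, 891 with the trend and 35 to 62 without 1 pair. The spikes read 0.192 higher on Ag1.3 arrays on the log2 scale, and scaling to them gave 1686 genes, 287 of them higher, and moved the median of all genes to -0.16. Relative to that median Erbb3 was at -0.59, Snai2 at -0.45 and Sox9 at 0.53. Of 117 log2 fold changes of members under the alternatives, 109 kept their direction. The 8 others were near 0 and belonged to genes not past the threshold, namely Sox8 (-0.0699), Sox10 (-0.0820) and Ednrb (-0.140) with the spikes and Ednrb with the mean of its probe sets (-0.0383), and Sox8, Ets1 and Ednrb without 1 pair, which ran from -0.0158 to 0.0541, from -0.172 to 0.0588 and from -0.0397 to 0.109. The causes were not tested. The choice of probe set by mean intensity, added after seeing the data, gave 256 genes and 0 members. Of the named genes of other lists, 0 changed direction, and Pax3 passed in 10 of 12 alternatives, Cdh6 in 10, Zic1, Pou3f1 and Ret in 8 and Cxcr4 in 7. Signal close to background limits Sox8, Snai2 and the dimmer probe sets of Sox9, Sox10 and Erbb3.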

Other observations

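Of the 23 further crest genes, 6 that did not pass had groups that did not overlap, and they were named after their values were seen. Cdh6 and Id3, which passed, had groups that did not overlap either. Over all genes, those that passed included, the groups of 11.8% did not overlap. Ngfr, the low-affinity neurotrophin receptor of migrating crest, read 142, 142 and 136 in Ag1.3 cultures, against 96.0, 101 and 92.5 in RA cultures, with adjusted p = 0.0560 in limma's test. Itga4, an integrin of migrating crest, read 79.4, 54.9 and 47.1 in Ag1.3 cultures, against 24.5, 27.4 and 25.1 in RA cultures, with a log2 change of 0.85 and adjusted p = 0.0610. Nrp1, a semaphorin receptor, read 225, 176 and 166 in Ag1.3 cultures, against 141, 130 and 108 in RA cultures, with adjusted p = 0.0586. Id2, a relative of Id3, read 510, 402 and 664 in Ag1.3 cultures, against 847, 745 and 724 in RA cultures, with adjusted p = 0.182. The others were Zeb1, a repressor of epithelial genes, at 425 to 549 in Ag1.3 and 299 to 407 in RA cultures, and Rhob, a small GTPase, at 778 to 833 in Ag1.3 and 881 to 1099 in RA cultures, with adjusted p = 0.0985 and 0.221. Tfap2c, another AP-2 gene with known expression in early embryonic cells, read 313, 411 and 721 in Ag1.3 cultures, against 543, 700 and 843 in RA cultures. It was lower with Ag1.3 in all 3 pairs, with a log2 change of -0.58, SE 0.13 and adjusted p = 0.126, and its groups overlapped. Hand2, a factor of autonomic neurons, read 21.4, 35.1 and 48.0 in Ag1.3 cultures, all above the RA cultures at 15.3, 15.8 and 19.1, which were at background, with adjusted p = 0.116.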
